A study of Oryza sativa and Arabidopsis thaliana with 28 samples.

Results

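Among 3695 rice genes in the translation table of this series, 198 (5.36%) had a lower level on ribosomes in the mutant osnat10-1 while their level in total mRNA was kept near that of the wild type. The members were chosen by the values described here. The mean wild-type ribosome-bound level had to reach 5 RPKM (reads scaled by transcript length and by library size). The mean osnat10-1 ribosome-bound level had to be at most 0.6 of it, with both osnat10-1 libraries below both wild-type ones. The mean osnat10-1 input level had to be at least 0.8 of the wild-type mean, and the wild-type mean at least 0.8 of it. Ribosome-bound and input levels, and the ratio of the pair, are therefore given as descriptions of the members and support nothing. The C-to-T sites given near the end were not used to choose the members from the table. The table itself holds only genes with the modified base ac4C by the authors' own calls.

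Translation is often followed by separating the mRNAs that carry ribosomes from the total mRNA of the same tissue. In RNC-seq, complexes of ribosome, nascent chain and mRNA are collected and their mRNA is sequenced beside an input library of total mRNA. A gene whose ribosome-bound level is lower at a like input level has a lower translation efficiency (TE), the ratio of the ribosome-bound to the input level. N4-acetylcytidine (ac4C) is a modified base that RNA cytidine acetyltransferases place in ribosomal RNA and transfer RNA, and the human enzyme NAT10 has been reported to place it in mRNA and to affect translation there.

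The RNC-seq part holds 8 libraries in 4 groups of 2. They are ribosome-bound mRNA and input mRNA of wild-type (WT) rice seedlings, genotype Kitaake, and of seedlings of osnat10-1 (osnat10 here), 1 mutant line named after an acetyltransferase gene. The labels used here give neither the kind of mutation nor the age of these seedlings, nor whether the libraries of a group came from separate plants, so p-values measure only the spread between these libraries, which may be technical. The ac4C-seq part holds 1 library of RNA reduced with NaCNBH3 and 1 control library, both from 15-day-old seedlings of the cultivar Nipponbare with a treatment time of 20 min, and has no mutant sample. The table is limited to genes with ac4C by the authors' own calls, so it is not the whole transcriptome. The sources used here pair no rice ID with a gene name, so the members are given by ID, and neither seedling marker genes nor the mutated gene could be looked up.

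The depth of the RNC-seq libraries is unknown, since only RPKM values were used. The median RPKM over all genes was 24.7 and 24.7 in the WT ribosome libraries, 21.3 and 23.1 in the osnat10 ones, and lay between 16.3 and 18.6 in the inputs. Genes listed at 0 numbered 2 and 49 in the WT ribosome libraries, 95 and 10 in osnat10 ribosome replicates 1 and 2, and 0 in each input. Replicate 1 of the osnat10 ribosome libraries thus had the most genes at 0, and its part in the results below was not tested beyond the values without it. The WT columns carry no replicate number and are called first and later listed.

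The conditions narrowed the table in steps. The WT ribosome level kept 3409 genes, the ratio of at most 0.6 kept 526, and the separation of the libraries kept 485. The last step was the input: 274 of the 485 had an input ratio under 0.8 and 13 had one above the upper limit, which left 198. Most genes with a low ribosome-bound level in osnat10 thus also had a lower input level, and the members are the remainder. Seen from the other side, 2139 genes met the level and input conditions whatever their ribosome ratio, and the members make up 9.26% of them. The same conditions turned around, with the osnat10 level the higher, held for 47 genes.

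**Figure D1:**
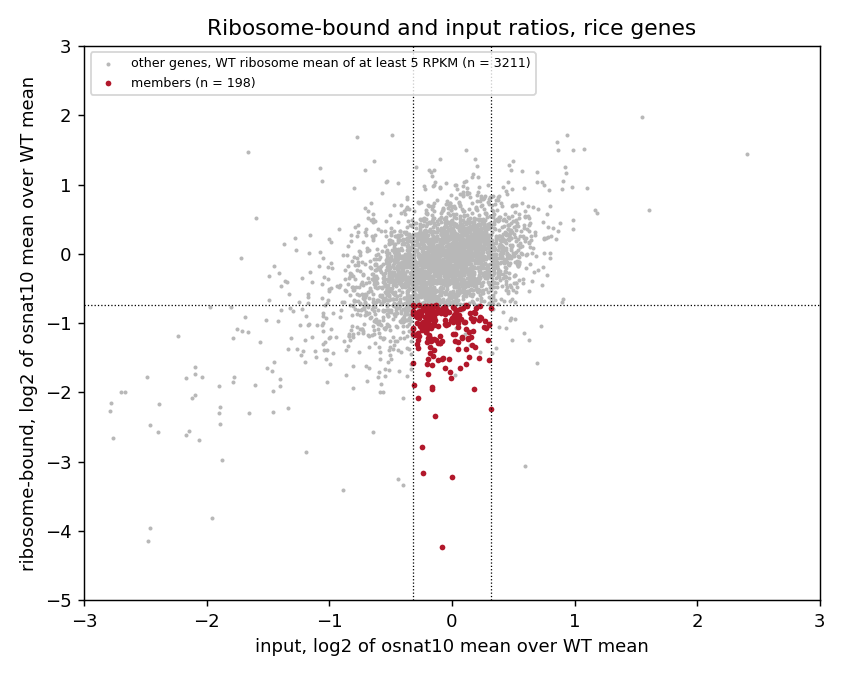
Each point is a gene with a WT ribosome mean of at least 5 RPKM, placed by the log2 of its osnat10 to WT ratio of mean input RPKM (x axis) and of mean ribosome-bound RPKM (y axis), with members in red and the limits of the rule as dotted lines. The 198 members fill the window under a ribosome ratio of 0.6 and between an input ratio of 0.8 and its inverse, and 6 genes lie outside the plotted range.

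The median level of the members was below that of all genes in each library, inputs included. The gap was widest on osnat10 ribosomes, where the rule demands low values. Their median RPKM was 22.0 and 21.5 in the WT ribosome libraries, 8.77 and 12.4 in the osnat10 ones, 14.0 and 15.8 in the WT inputs and 13.9 and 15.6 in the osnat10 inputs. The mean WT ribosome level ran from 6.27 to 359.8 RPKM with a median of 22.2, beside 25.1 over all genes. In summed RPKM the members held 3.60% and 3.47% of the WT ribosome libraries and 1.73% and 2.27% of the osnat10 ones. Their share of the input libraries was 3.90% and 4.07% in the WT and 4.08% and 4.13% in osnat10. In these seedling libraries, fewer cells of a type and less RNA per cell cannot be told apart.

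**Figure D2:**
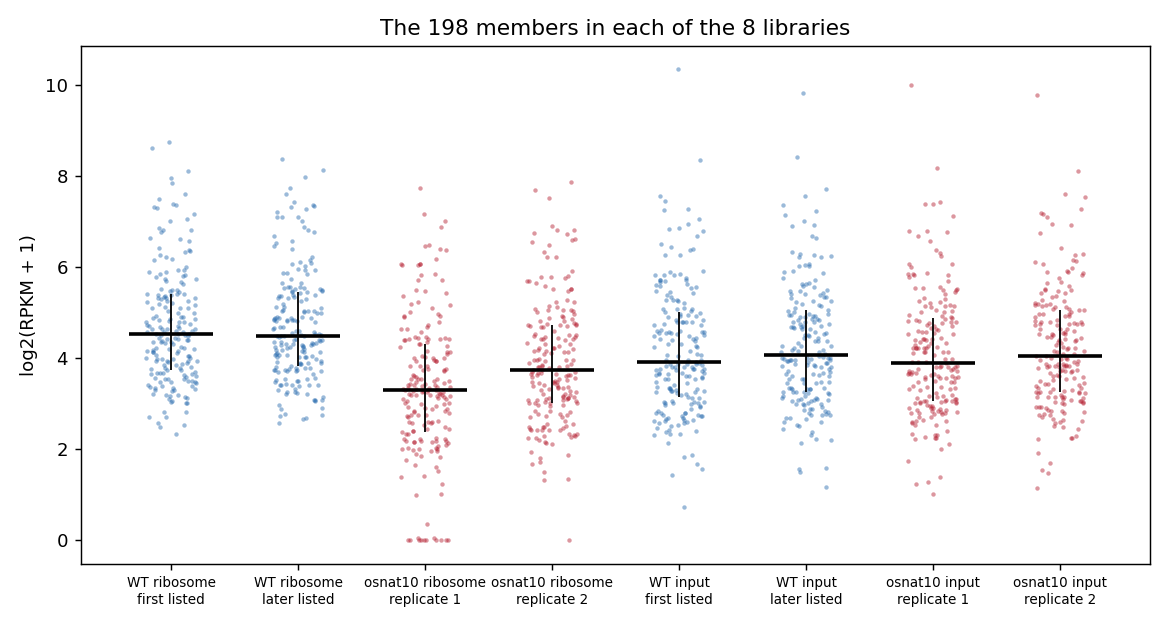
Level of the 198 members in each of the 8 libraries, on the log2(RPKM + 1) scale, with 1 point per gene, the median as a horizontal bar and the middle 50% as a vertical line. The osnat10 ribosome libraries have medians of 8.77 and 12.4 RPKM, below the 22.0 and 21.5 RPKM of the WT ribosome libraries, and the 4 input medians lie between 13.9 and 15.8 RPKM.

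The ribosome ratio of the members ran from 0.0533 to 0.5998 with a median of 0.501, beside 0.889 over all genes and 0.927 over the 2139 genes that met the level and input conditions. Most members lay close to the limit. The ratio was over 0.5 in 101 members, between 0.4 and 0.5 in 61, between 0.25 and 0.4 in 29, and at most 0.25 in 7. The values just inside the limit were 0.5994 for Os03g0566800, 0.5997 for Os04g0610800 and 0.5998 for Os03g0685900. Just outside, and meeting every other condition, were Os01g0100700 at 0.6002, Os11g0602200 at 0.6007 and Os09g0505700 at 0.6011. No gap separates members from non-members there.

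The lowest ratio belonged to Os05g0472000 (IRGSP-1.0, chromosome 5, 23178205 to 23178921, plus strand). Its ribosome-bound level was 12.4 and 21.5 RPKM in the WT and 0 and 1.81 RPKM in osnat10, or 5.33% of the WT mean, and its input level was 12.6 and 11.5 RPKM in the WT and 10.8 and 12.05 RPKM in osnat10. Both osnat10 ribosome libraries lay far below both WT ones, while the inputs overlapped. Os06g0726100 (chromosome 6, 30887215 to 30888383, plus strand) had 7.25 and 6.88 RPKM on WT ribosomes and 0 and 1.51 RPKM on osnat10 ribosomes, or 10.7% of the WT mean. Its inputs of 7.73 and 6.93 RPKM in the WT and 5.95 and 8.71 RPKM in osnat10 overlapped as well. A value listed at 0 in one library can be a failed estimate, so the members in which both osnat10 libraries had a level are given next.

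Os01g0110200 (chromosome 1, 543425 to 544510, minus strand) had 7.28 and 15.7 RPKM on WT ribosomes and 1.01 and 1.55 RPKM on osnat10 ribosomes, or 11.1% of the WT mean. Its input was higher than its ribosome-bound level throughout, at 20.4 and 28.8 RPKM in the WT and 17.96 and 23.9 RPKM in osnat10. Os06g0316100 (chromosome 6, 12197494 to 12200651, plus strand) had 10.1 and 17.7 RPKM on WT ribosomes and 2.63 and 2.85 RPKM on osnat10 ribosomes, or 19.7% of the WT mean. Its inputs stood at 19.9 and 19.0 RPKM in the WT and 17.7 and 17.6 RPKM in osnat10, so the osnat10 inputs lay just below the WT ones. In both genes the osnat10 ribosome libraries were close to each other and the WT libraries were farther apart.

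Os11g0140600 (chromosome 11, 1869163 to 1872206, minus strand) had 20.6 and 10.2 RPKM on WT ribosomes and 3.53 and 4.58 RPKM on osnat10 ribosomes, with inputs of 27.4 and 39.3 RPKM in the WT and 27.02 and 32.5 RPKM in osnat10. Os05g0359700 (chromosome 5, 17135217 to 17135756, plus strand) had 39.1 and 12.7 RPKM on WT ribosomes and 8.12 and 6.88 RPKM on osnat10 ribosomes. Its osnat10 mean was 28.9% of the WT mean, and the first listed WT library lay far above the later one. Among the 12 members with the lowest ratios, 4 kept both osnat10 ribosome libraries above 1 RPKM, and they are the 4 genes given here from Os01g0110200 on.

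In the other 8 of these 12, one osnat10 ribosome library was at or under 1 RPKM. In Os05g0579600 the osnat10 ribosome level was 0 and 5.53 RPKM beside 13.3 and 24.7 RPKM in the WT, and in Os08g0500000 it was 0 and 3.79 RPKM beside 5.49 and 12.4 RPKM. Os10g0109300 had 0 and 4.89 RPKM beside 10.7 and 8.19 RPKM, and Os01g0757600 had 0 and 7.23 RPKM beside 7.62 and 19.2 RPKM. Os07g0569600 had 0.0353 and 4.47 RPKM beside 7.89 and 9.47 RPKM. These low values all stood in replicate 1. Os02g0445300, which spans 336 bases, was the exception, with 10.6 RPKM in replicate 1 and 0 in replicate 2 beside 23.1 and 21.6 RPKM in the WT. The inputs of these 12 genes overlapped between the genotypes in 9, and their input ratio ran from 0.806 to 1.24.

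At the other end of the scale stood members with a high level. The 6 with the highest WT ribosome means, from 188 to 360 RPKM, are short genes spanning 562 to 1466 bases, and 5 of them are listed with 1 transcript. Their ratios ran from 0.438 to 0.586, none had an osnat10 ribosome library at or under 1 RPKM, and in none did the osnat10 libraries differ by over 2-fold. Os02g0284600 (chromosome 2, 10700829 to 10701516, minus strand) had 392 and 327 RPKM on WT ribosomes and 212 and 205 RPKM on osnat10 ribosomes. Its inputs of 174 and 209.5 RPKM in the WT and 171 and 192 RPKM in osnat10 overlapped.

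Os02g0684500 (chromosome 2, 27994105 to 27994677, minus strand) had 227 and 193 RPKM on WT ribosomes and 88.0 and 104.8 RPKM on osnat10 ribosomes, with inputs of 32.7 and 41.6 RPKM in the WT and 26.7 and 37.4 RPKM in osnat10. Even in osnat10, its ribosome-bound level stayed above its input. Os10g0377150 (chromosome 10, 12024100 to 12024661, minus strand) had 246 and 171 RPKM on WT ribosomes and 86.6 and 95.9 RPKM on osnat10 ribosomes. Its inputs of 76.1 and 58.6 RPKM in the WT lay above the 55.9 and 55.7 RPKM of osnat10.

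Os06g0101600 (chromosome 6, 149486 to 150187, minus strand) had 428 and 277 RPKM on WT ribosomes and 142 and 233 RPKM on osnat10 ribosomes, beside inputs of 1291 and 899.8 RPKM in the WT and 1014 and 869 RPKM in osnat10. It had far more input than ribosome-bound mRNA in both genotypes, unlike the other 5. Os03g0799000 (chromosome 3, 33304497 to 33305962, plus strand) had 275 and 252 RPKM on WT ribosomes and 128 and 181 RPKM on osnat10 ribosomes. Os03g0575500 (chromosome 3, 21030442 to 21031298, plus strand) had 164 and 212 RPKM on WT ribosomes and 117 and 97.6 RPKM on osnat10 ribosomes. In all 6 genes the ribosome libraries of the genotypes did not overlap, as the rule demands.

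The osnat10 ribosome libraries did not weigh equally in the choice. Replicate 1 was below replicate 2 in 152 of the 198 members (76.8%), beside 56.3% of all genes. The replicates were over 2-fold apart in 58 members (29.3%), beside 17.1% of all genes and 12.9% of the genes that met the level and input conditions. The WT ribosome libraries were over 2-fold apart in 13 members (6.57%), beside 9.91% of all genes. An osnat10 ribosome library was listed at 0 in 11 members (5.56%), 10 of them in replicate 1. This share was 2.84% of all genes and 0.608% of the genes that met the level and input conditions. The rule demands low osnat10 levels and so favours such values. An osnat10 ribosome library was at or under 1 RPKM in 15 members (7.58%), beside 4.74% and 0.982%. Without those 15, the other 183 had a median ratio of 0.508 and a lowest ratio of 0.111.

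**Figure D3:**
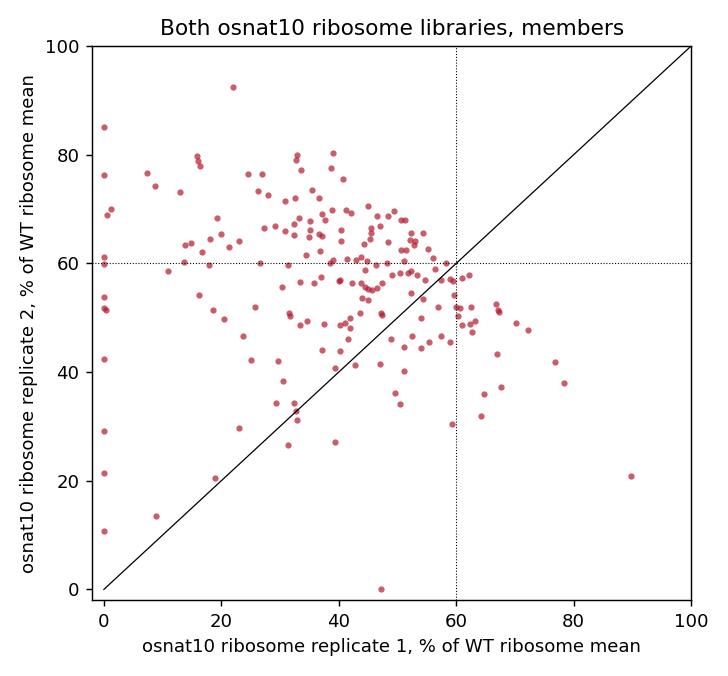
Ribosome-bound RPKM of osnat10 replicate 1 (x axis) and replicate 2 (y axis), each as a percentage of the WT ribosome mean of the gene, for the 198 members, with dotted lines at the limit of the rule and a solid line at equality. Replicate 1 is the lower one in 152 members, and 91 members have both replicates within the limit.

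Taken singly, replicate 1 was at most 0.6 of the WT mean in 177 members (89.4%), beside 25.9% of all genes. Replicate 2 was in 112 (56.6%), beside 15.3%, and both were in 91 (46.0%), beside 8.61%. The strictest reading, with both osnat10 libraries at most at 0.6 of the lower WT library, held for 53 members (26.8%). It held for 5.41% of all genes. The rule used these values, so the higher shares among the members are built in and support nothing. The members thus hold a group in which each library meets the limit, and a larger one in which the mean meets it and 1 library does not.

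The choice was repeated with 1 ribosome library left out, and that library was then read for the genes picked without it. Each reading still holds a side of the ratio that the choice fixed, the osnat10 libraries where a WT library was left out and the WT libraries where an osnat10 library was. The choice itself thus pushes these ratios down, the background was not chosen in this way, and the readings are given as values with no test. Without osnat10 replicate 1, 186 genes were picked at a median ratio of 0.509, and their ratio in replicate 1 had a median of 0.605, beside 0.888 over the genes meeting the level and input conditions. Of these genes, 92 (49.5%) were again at most at 0.6 in the left-out library, beside 21.6% of the background. Without osnat10 replicate 2, 450 genes were picked at 0.464, but their median ratio in replicate 2 was 0.780, beside 0.945, and 93 of them (20.7%) were at most at 0.6, beside 8.79%. Replicate 1 thus picked many more genes, and a smaller share of them was low in replicate 2.

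Leaving out the first listed WT library picked 251 genes, whose median ratio moved from 0.508 to 0.611 when that library alone stood for the WT, beside 0.931 in the background. Leaving out the later listed one picked 264 genes, whose median moved from 0.502 to 0.619, beside 0.942. In each of the 4 readings the median of the picked genes was nearer to 1 in the left-out library than in those that picked them.

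**Figure D4:**
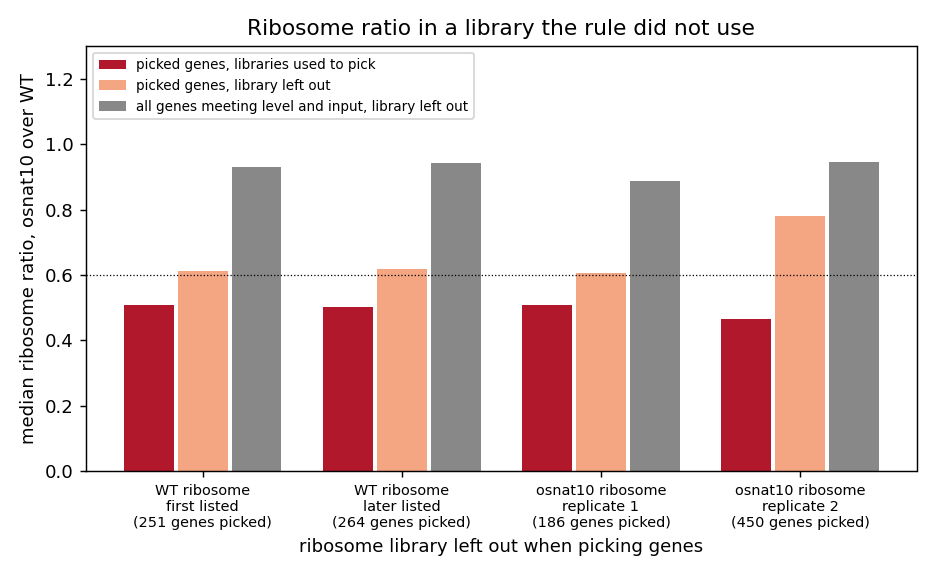
Median osnat10 to WT ribosome ratio of the genes picked without 1 ribosome library, in the libraries used and with the left-out library, beside the background genes that met the level and input conditions, with the limit of 0.6 as a dotted line. The picked genes stand at 0.464 to 0.509 in the libraries used and at 0.605 to 0.780 with the left-out library, beside background medians of 0.888 to 0.945, which were not chosen on any ribosome ratio.

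The input level was kept within the limits of the rule, with a median ratio of 0.918 and a range from 0.800 to 1.24, but it was not centred on 1. The osnat10 mean was the lower one in 134 members (67.7%), beside 57.6% of all genes. An input ratio between 0.8 and 0.9 was held by 85 members (42.9%), beside 16.5% of all genes. The input libraries of the genotypes overlapped in 139 members (70.2%), beside 51.3% of all genes. Among the genes that met the level and input conditions this share was also 70.2%, so the overlap is no trait of the members. In 46 members (23.2%) both osnat10 inputs lay below both WT ones, beside 34.99% of all genes. Both lay above in 13 (6.57%), beside 13.7% of all genes. All genes are not held to the input limits, whereas the genes that met the level and input conditions are. Of the latter, 20.4% had both osnat10 inputs below both WT ones and 9.44% had both above. Their osnat10 mean was the lower one in 52.8%, and 27.6% had an input ratio between 0.8 and 0.9. The ribosome ratio and the input ratio of the members had a Spearman correlation of -0.03 over 198 genes, a description of values that share their libraries.

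TE, given as the natural log of mean ribosome-bound over mean input RPKM, had a median of 0.346 in the WT and -0.347 in osnat10 over the members. The change in TE ran from -2.87 to -0.295 with a median of -0.637, beside -0.0569 over all genes. In the WT, 143 of the 198 members (72.2%) had more ribosome-bound than input RPKM, beside 67.7% of all genes, so this was about as common among the members as in the table. In osnat10, 64 (32.3%) did, beside 63.7%.

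The members fall into 3 classes by TE. In 79 members (39.9%) the ribosome-bound level was above the input in the WT and below it in osnat10, beside 8.88% of all genes. In 64 (32.3%) it was above the input in both genotypes, as in Os02g0684500, beside 58.8% of all genes. In 55 (27.8%) it was below in both, as in Os01g0110200, beside 27.4% of all genes. The rule lowers TE in every member, so it favours the class that crossed. Os05g0472000 belongs to the class that crossed, with a TE of 0.34 in the WT and -2.53 in osnat10, and Os06g0726100 had -0.04 and -2.27. No member had the reverse crossing, which the rule does not allow.

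Across all genes tested, limma called the ribosome-bound level lower in osnat10 for 150 of 3665 genes (4.09%) and higher for 21 (0.573%) at an adjusted p under 0.05. All 198 members passed the filter of a mean of 1 RPKM, and 36 of them were called lower and 0 higher. The rule used this contrast, so nothing is read from the 36 beyond the fact that 162 members met a fixed ratio but not the test across all genes. At an unadjusted p under 0.05, 186 members were lower, beside 674 genes in all (18.4%), and 0 members were higher, beside 168 genes (4.58%). The median difference of the members was -0.96 on the log2(RPKM + 1) scale, with a median standard error of 0.31. The median of all genes was itself -0.17, and with each library centred on its median the members stood at -0.81 and all genes at -0.02. Centred in this way, 76 genes were lower and 30 higher, and 11 members were called.

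The calls moved with single libraries. Over all genes, the 150 lower became 542 without osnat10 ribosome replicate 2, 39 and 44 without the first and the later listed WT ribosome library, and 58 without either osnat10 input. The count of members called lower was 124 without osnat10 ribosome replicate 2 and 18 without replicate 1, and it was 4 without either WT ribosome library. Without an input library it was 14 or 15 for the WT and 8 for either osnat10 one. Where a group was left with 1 library, that library was assumed to vary like the other groups. With a pseudocount of 0.1 it was 19.

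Among the named members, the difference on the log2(RPKM + 1) scale was -3.37 with a standard error of 0.47 in Os05g0472000, -2.38 with 0.38 in Os01g0110200 and -1.95 with 0.30 in Os06g0316100. These are values that chose the genes, so they are given with no test. Of the 12 members with the lowest ratios, 5 were among the 36 called by limma, which were these 3, Os06g0726100 and Os11g0140600. Of the 6 with the highest levels, 3 were, which were Os02g0284600, Os02g0684500 and Os10g0377150. The difference of Os02g0284600 was -0.78 with a standard error of 0.17, and the libraries of each genotype lay close together. In Os02g0445300, with 1 library at 0, it was -2.78 with a standard error of 0.87, and it became -1.01 without osnat10 ribosome replicate 2 and -4.54 without replicate 1.

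For the input, limma called 44 genes lower (1.2%) and 4 higher (0.109%) in osnat10, and 0 members in either direction, as the choice of members fixes. At an unadjusted p under 0.05, 301 genes were lower (8.21%) and 62 higher (1.69%), and 0 members were either. The median input difference of the members was -0.11, beside -0.07 over all genes. For TE, the interaction of genotype and fraction, limma called 0 of 3665 genes (0%) at an adjusted p under 0.05 in either direction, and 130 lower (3.55%) and 89 higher (2.43%) at an unadjusted p under 0.05. Of the 130, 75 were members. The rule used both levels that make up TE, so nothing is read from the 75. The median TE difference of the members was -0.91 with a median standard error of 0.45, beside -0.10 over all genes. Without osnat10 ribosome replicate 2, the median TE difference was -1.09 in the members and -0.13 over all genes. Without replicate 1 it was -0.69 in the members and -0.03 over all genes.

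The rule named no property of the genes themselves, and these are set beside the table as a whole. Length may still bear on the choice, since the rule used RPKM values, which are scaled by length, and this was not tested. The members were listed with 1 transcript in 149 of 198 (75.3%), beside 62.8% of all genes. Their span from gene start to end had a median of 3039 bases and ran from 329 to 20859, beside a median of 3331 over all genes. Spans of at most 1000 bases were held by 24 members (12.1%, beside 7.90%) and spans over 5000 bases by 29 (14.6%, beside 23.5%). The members thus hold more short genes and fewer long ones than the table does, a difference given as counts and not tested.

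RPKM is divided by a length whose source is not stated. The span and the WT ribosome level had a Spearman correlation of -0.38 over the members and -0.39 over all genes, a description in which both values of a gene depend on its length. On the plus strand lay 89 members (44.9%), beside 51.5% of all genes. The members were spread over all 12 nuclear chromosomes. Their share of the listed genes ran from 3.38% on chromosome 8, with 9 of 266, to 6.80% on chromosome 2, with 30 of 441, and 0 of the 7 organelle genes were members.

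The ac4C-seq libraries answer whether the members carry reference cytosines that read as T after NaCNBH3 reduction, the reading that ac4C gives. The site list covers chromosomes 1 to 8 and the start of chromosome 9 up to position 30801, beside the organelles, and gives no strand. Its positions are cytosines of the plus strand, so only genes of that strand were read. Within those stretches lay 76 plus-strand members of 1574 plus-strand genes. No site with fewer than 5 treated T reads is listed. The test compares these 2 libraries and not the conditions.

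Nearly every gene held a site, members and others alike, in a table limited to genes with ac4C by the authors' own calls. The site shares below therefore give no separate evidence that members carry ac4C, and how far that limit sets them was not tested. A site was called higher in the treated library (two-sided Fisher's exact test, Benjamini-Hochberg adjusted p under 0.05) in 75 of the 76 members (98.7%), and in 1477 of the 1574 genes (93.8%). The member without one, Os06g0597400, had 11 sites tested and a WT input of 0.954 RPKM, and it is named here after its values were seen. Of 7321 sites tested in members, 5752 were called (78.6%), beside 118158 of 172945 in all plus-strand genes (68.3%), and 0 were called lower, beside 66. Sites were pooled over genes, so genes with many sites weigh most in the shares and medians of sites. A member held up to 334 called sites, with a median of 36. The list demands at least 5 treated T reads and sets no such floor for the control, so it favours sites higher in the treated library. The called share and the lack of lower sites are thus partly fixed by the list. Calls were also made in minus-strand genes, where the listed base is no cytosine of the transcript. There, 22 of 65 positions were called in members and 783 of 2831 over all genes. The median treated depth there was 4463 and 4473 reads, far above the plus-strand depth given next, so the shares of the strands are not alike in depth. The median depth at the plus-strand sites tested was 957 treated and 1443 control reads in members, beside 1019 and 1075 over all. The control depth was thus higher where the called share was higher, and its part in that share was not tested. Among sites with 500 to 2000 treated reads, 77.9% were called in members and 65.3% in all genes.

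The rates at called sites were low and alike. The floor of 5 treated T reads sets the lowest rate that a listed site can have at its depth. The median treated rate was 1.04% in members and 1.03% over all genes, and the median control rate was 0 in members, with 3617 of the 5752 sites showing no control T read. A member held a median of 36 called sites, beside 32, and 14.4 called sites per kilobase of span, beside 9.83. A called site at least 5 points above the control was found in 7 members (9.21%), with 1 site each, beside 170 of all genes (10.8%). Sites of this height were thus held by a share of members near that of the table.

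The highest rate stood in Os06g0503400 (chromosome 6, 17836976 to 17840764, plus strand) at position 17837198, base 223 of its 3789 bases. There T was read in 130 of 447 treated reads, a rate of 29.1% with a 95% Clopper-Pearson interval from 24.9 to 33.5, and in 0 of 1088 control reads, which allows up to 0.276% (Fisher's exact test, adjusted p = 2.74e-75). This gene had 62.8 and 107.5 RPKM on WT ribosomes and 43.8 and 53.2 RPKM on osnat10 ribosomes, with inputs of 37.9 and 38.8 RPKM in the WT and 38.9 and 35.3 RPKM in osnat10. Its ribosome ratio of 0.569 places it among the members near the limit. The intervals and limits hold for counting error alone, because several reads can stem from 1 molecule where no molecular identifiers were used.

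The next site, in Os04g0613600 (chromosome 4, 31105989 to 31107921, plus strand) at position 31107320, differed in kind. It had 333 of 1442 treated reads, or 23.1% (20.9 to 25.4), against 168 of 1198 control reads, or 14.0% (12.1 to 16.1), with an adjusted p of 2.31e-08 by Fisher's exact test. T reads were thus frequent without reduction as well. The ribosome-bound level of this gene was 55.1 and 67.3 RPKM in the WT and 16.05 and 44.9 RPKM in osnat10, with the osnat10 replicates over 2-fold apart.

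The other 8 of the 10 members with the highest rates had 0 control T reads at their site and treated rates from 4.50% to 8.26%. In Os08g0398700 (chromosome 8, position 19025425), 10 of 121 treated reads were T, or 8.26% (4.03 to 14.7), against 0 of 69 control reads, which allows up to 4.35%. In Os02g0315400 (chromosome 2, position 12494861), 13 of 289 were T, or 4.50% (2.42 to 7.57), against 0 of 543, which allows up to 0.552%. The control depth behind the first of these leaves a wide limit, and the second is firmer. Os06g0316100, one of the members with the lowest ribosome ratios, had 8 of 149 treated reads as T, or 5.37% (2.35 to 10.3), at position 12200169, base 2676 of 3158, against 0 of 106 control reads, which allows up to 2.83%. By the adjusted p in the authors' deposited table, the site of Os02g0315400 passed 0.05 (0.000199), whereas those of Os08g0398700 (0.836) and Os06g0316100 (0.937) did not.

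The same small counts lay behind the remaining sites. At position 6795435 in Os06g0231300 the treated rate was 5.44% (8 of 147 reads), at 28344685 in Os08g0565800 it was 5.41% (12 of 222), and at 30846127 in Os04g0609100 it was 5.17% (17 of 329). Os05g0522500 had 4.84% (6 of 124 reads) at position 26019425, and Os01g0542000 had 4.55% (11 of 242) at 19972232. The adjusted p of these 5 sites by Fisher's exact test lay between 0.0110 and 0.0491. By the adjusted p in the authors' deposited table, which ran from 0.518 to 0.972 for them, none of the 5 was called, so these calls rest on the test used here. The ribosome ratios of the 10 genes ran from 0.197 to 0.594, so they included members near the limit as well as 1 of the lowest.

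Along the gene, called sites of the members were most numerous near the start. With the span cut into 5 equal bins, the bins from start to end held 28.4%, 19.4%, 17.8%, 17.2% and 17.2% of the 5752 called sites, beside 23.3%, 14.6%, 16.8%, 21.9% and 23.4% over all genes. The share of tested sites that were called was 90.8% in the first bin and 51.9% in the last one in members, and 84.8% and 48.4% over all genes. The control depth was also lowest in the last bin, at a median of 555 reads in members and 500 over all genes, and its part in the lower share was not tested. The median rate of called sites was 1.05% in the first and 1.11% in the last bin of members. The values of the bins are pooled over genes, so genes with many sites weigh most in them.

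**Figure D5:**
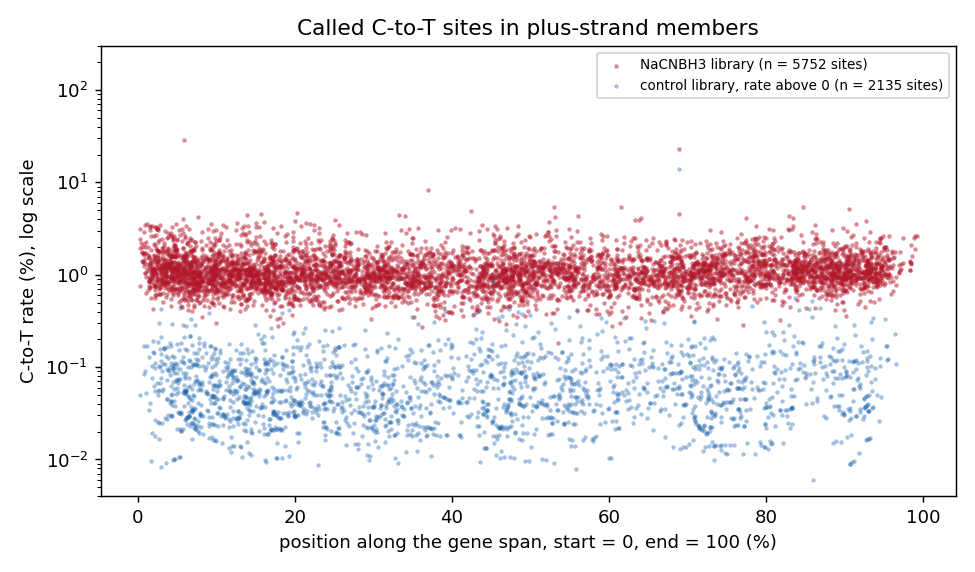
C-to-T rate in percent, on a log scale, of the 5752 called sites in plus-strand members against their position along the gene span from start (0) to end (100), with the treated library and, where above 0, the control library (2135 sites). Most treated rates lie near 1%, and the sites at 29.1% and 23.1% stand above the rest, the latter with a control rate of 14.0%.

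The most called sites were held by Os07g0180900 with 334, Os02g0666200 with 316, Os04g0559700 with 313 and Os03g0799000 with 311, named after their values were seen. Called sites followed the input level, with a Spearman correlation of 0.71 between the number of called sites and the WT input mean over 76 members and 0.63 over 1574 genes. Both are descriptions, since reads at a site become more numerous with the level of the gene. The number of called sites per kilobase and the ribosome ratio had a Spearman correlation of 0.24 over the members and -0.06 over all genes, and the highest called rate of a gene had one of -0.002 with the ribosome ratio over 75 members. The sites were read in another cultivar than the ribosome ratio.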

How the data were processed

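Rice RNC-seq values are RPKM made by the authors, with the deposited TE equal to the natural log of mean ribosome-bound over mean input RPKM (100% of genes, tolerance 1e-06). The deposited rice ac4C-seq sites hold counts of T reads and of reads headed C, and the authors' p-value. The reads headed C were taken as all reads, because that p equals a continuity-corrected test of 2 proportions on them at 100% of sites (relative tolerance 0.001). Per the submitters' processing notes, STAR 2.5.3a, SAMtools and the build IRGSP-1.0 were used. The step each served, and the strand and length used in counting, are not given in the sources used here, so overlapping genes of opposite strands cannot be told apart.

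One value per gene and library was used. Log2 of RPKM plus 1, which understates the fold changes of low genes, went into limma 3.58.1 (R 4.3.3, eBayes trend) where the gene mean reached 1 RPKM, with the 4 groups in 1 fit and neither scaling nor block. Among 3663 genes with simulated 2-fold or 4-fold falls on ribosomes in 100 each, 48 and 86 of these were called for the ribosome-bound level and 12 and 63 for TE. Sites were kept at 10 or more reads in both libraries (341377 of 341437) and tested by Fisher's exact test, two-sided. In simulated data, 16 and 45 of 100 sites given 1 or 3 more points were called. All other simulated sites had equal rates in both libraries, whereas 68.3% of the real sites in plus-strand genes were called. The adjustment for many tests was thus stricter in the simulation, and its counts do not give the share found in the real data. P-values were adjusted by Benjamini-Hochberg over all genes or sites. Intervals are 95% Clopper-Pearson, and the limit for 0 uses 3 counts. Scripts used Python 3.11.15, numpy 2.4.6, pandas 2.3.3, scipy 1.17.1, numba 0.67.0 and matplotlib 3.10.9.

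The members, lists and alternatives were chosen with earlier results of these data known. Members named are the 12 with the lowest ribosome ratio, the 6 with the highest WT ribosome mean, the 3 just inside the ratio limit (with 3 genes just outside), and the 10 with the highest called site rates at 50 or more reads in both libraries. Lists by function could not be applied, as 0 of 3695 IDs matched the reference name table. Alternatives changed the limits of the rule, the pseudocount, filter, centring, site test and libraries used. The acRIP and Arabidopsis samples were not used here.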

Additional observations from a re-analysis of the deposited data

Results flagged for a closer look

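A signal appeared in data outside the comparisons above: 22 C-to-T positions were called higher in the treated library inside members that lie on the minus strand, where a reference cytosine on the plus strand is not a cytosine of the transcript. They were among 65 positions tested in 25 of the 86 minus-strand members on the listed chromosomes, and 12 members held at least 1 of them. Their median treated rate was 0.155% and their median control rate 0. Over all 1437 minus-strand genes, 783 of 2831 tested positions were called, in 328 genes, with a median treated rate of 0.290%. The median treated depth was 4463 reads in the members and 4473 over all these genes, far above that of the plus-strand sites.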

How the results depend on the processing

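The number of members depends on the limits of the rule: 97 genes with a ribosome ratio of at most 0.5, 359 with at most 0.7 and 85 with an input ratio between 0.9 and 1.1. A WT ribosome level of at least 10 RPKM left 170. Scaling each library by its median gave 145, of which 120 were members by the main rule. Leaving out 1 library gave 160 to 450 genes, with 450 without osnat10 ribosome replicate 2. Of these 450, 177 were members by the main rule, the most for any library left out. The fewest were 112, among the 186 genes picked without osnat10 ribosome replicate 1. The genes picked thus changed along with their number. For the ribosome-bound level, the 150 genes lower by limma became 95 with a pseudocount of 0.1, 76 with centring and 39 to 542 with 1 library left out, and the 21 higher became 4 to 71 (71 without osnat10 ribosome replicate 2, 4 without the later listed WT ribosome library and 6 without either osnat10 input). For the input, the 44 lower became 12 to 79 (12 and 18 without an osnat10 input, 13 and 68 without the first and the later WT input, 78 and 79 without an osnat10 ribosome library). The 4 higher became 1 to 34, with 34 without the later WT input, and 2 with a pseudocount of 0.1. For TE, the 0 lower became 0 to 93 and the 0 higher 0 to 9, the highest of each without osnat10 ribosome replicate 2. Of the 5752 called sites in members, 3674 passed the authors' deposited adjusted p-value, and 3602 were called within 500 to 2000 treated reads. Leaving out an input library does not change a ribosome-bound difference, so only a ribosome library could move one. Of 264 such differences of the 33 named genes with 1 library left out, input libraries included, 33 in 18 genes moved by over 1.5 times. None of the 33 was in a gene called by limma. With a pseudocount of 0.1, the difference moved by over 1.5 times in 8 of 33 genes, among them the called Os05g0472000 (-5.23) and Os06g0726100 (-4.16). None of these differences reversed. Of the 10 named sites, 7 missed the threshold by the adjusted p in the authors' deposited table, and Os04g0613600 was lost where the control rate had to be at most 1%. Leaving out members at or under 1 RPKM, reading the left-out library at the genes picked without it, and the depth window were chosen after seeing the data. No paired analysis was possible because the WT columns carry no replicate number. The depth of the RNC-seq libraries is unknown, so no counting error can be given for their values.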

Other observations

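Of the 198 members, 63 (31.8%) had another listed gene within 10000 bases, beside 29.4% of all genes, and 6 had another member there. These 6 form 3 pairs, named after their values were seen. Os04g0685800 and Os04g0685900 lie 2197 bases apart on opposite strands of chromosome 4, Os02g0712000 and Os02g0712400 lie 5609 bases apart on the minus strand of chromosome 2, and Os03g0180100 and Os03g0180400 lie 9797 bases apart on the minus strand of chromosome 3. Over all genes, 1.95% had a member within this distance, beside 3.03% of the members.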
